A study of Mus musculus with 9 samples.

Results

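The core autophagy machinery is described here through 37 genes, taken by symbol from a table of 24411 genes measured in mouse liver. The genes were listed by the known role of their proteins in autophagosome formation. All 37 were in the table, and 35 had enough counts to be among the 11199 genes tested. Atg10 and Atg4a were too low and are given by level alone.

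Poly(A) RNA of 9 livers from mice of 3 months of age was sequenced, with 3 biological replicates in each of 3 groups. All 9 livers carried floxed Atg7 on both alleles (Atg7flox/flox). The cont. livers had no Cre, the Atg7-KO livers had Alb-Cre, whose albumin promoter is active in hepatocytes, and the S351A livers had Alb-Cre and p62S351A on both alleles. Macrophages, endothelial and stellate cells of the Cre livers, which are not hepatocytes, should therefore keep Atg7, and the whole liver was sequenced. Deletion of Atg7 in these cells and in ductular cells was not tested. The genotype entry of S351A replicates 2 and 3 names another p62 position than their titles, and the titles were followed.

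Autophagy encloses cytoplasm in a double membrane, the autophagosome, and delivers it to the lysosome. The ULK kinase complex starts the process, a class III phosphatidylinositol 3-kinase complex marks the site with the lipid PI3P, and lipid carriers extend the membrane. ATG8 proteins (LC3 and GABARAP) are then attached to the membrane by enzymes that resemble those of ubiquitin conjugation, in which ATG7 is the activating enzyme. In hepatocytes the pathway clears p62 (Sqstm1) and damaged organelles and supplies nutrients in fasting, and without ATG7 the ATG8 proteins cannot be attached.

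Levels are in CPM, the share of a library's counts that a gene took, scaled by TMM, which sets libraries to a common level from the bulk of their genes. Library totals were between 713835 and 15426566 counts. All 3 S351A libraries were smaller than any cont. or Atg7-KO library, so effects of the p62 mutation and of depth cannot be told apart. A count of 3 corresponded to between 0.269 and 3.73 CPM. The labels used here give no sex. Xist counts exceeded those of the 4 Y-linked genes, the pattern of a female, in 1 cont. liver (replicate 2) and in 2 livers each of Atg7-KO and S351A (replicates 2 and 3), and the sexes were thus not balanced between cont. and the Cre groups. All 10 hepatocyte markers, Alb and Apob among them, had counts in every library. Their summed level was 49436 to 114035 CPM in cont. livers, 38707 to 44752 CPM in Atg7-KO and 35975 to 48433 CPM in S351A. The summed markers of macrophages, ductular cells, stellate cells with matrix, and lymphocytes were higher in every Cre liver than in any cont. liver, and those of endothelial cells overlapped. The 15 macrophage markers summed to 264 to 424 CPM in cont. livers, 537 to 678 CPM in Atg7-KO and 462 to 485 CPM in S351A, and Gpnmb was at 0 in every cont. library. The macrophage list was split, with 10 markers called higher and 1, Timd4, lower in Atg7-KO, and 9 and 0 in S351A. In each comparison 11 of the 15 had positive changes and 4 negative ones. Timd4, Clec4f and Cd5l, markers of Kupffer cells, were among the negative ones in both. Vsig4 and Marco, further Kupffer cell markers of the list, were not both negative in either, so markers of these cells went both ways. Timd4 was at 7.69 ± 0.887 CPM (SD, n = 3) in cont. livers, at 2.19 ± 1.45 CPM in Atg7-KO livers and at 4.03 ± 1.91 CPM in S351A livers. The 9 ductular markers summed to 79.2 to 133 CPM, 907 to 1311 CPM and 834 to 1300 CPM, and the 10 stellate and matrix markers to 297 to 598 CPM, 1338 to 1809 CPM and 1218 to 1749 CPM in the same order. The 10 endothelial markers summed to 238 to 430 CPM, 317 to 387 CPM and 318 to 325 CPM, and the 9 lymphocyte markers to 10.8 to 26.8 CPM, 57.4 to 76.4 CPM and 43.2 to 47.2 CPM. The part of these cells in the results that follow was not tested, and fewer cells of a type cannot be told apart from less RNA per cell.

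Per kilobase of exon, 2 ATG8 genes and 2 genes of membrane proteins had the highest levels of the machinery in cont. liver. Gabarap, which encodes an ATG8 protein, had the highest level per length at 89.5 CPM per kb, followed by its relative Gabarapl1 at 74.8 CPM per kb. Vamp8, a SNARE of the lysosome and late endosome, was at 54.2 CPM per kb, and Vmp1, a lipid scramblase of the endoplasmic reticulum, at 37.3 CPM per kb. The conjugating enzyme gene Atg3 was at 35.0 CPM per kb. At the low end stood the ATG4 protease genes Atg4c at 1.58 CPM per kb and Atg4a at 1.73 CPM per kb. The length of a gene is the union of the exons of all its GENCODE M21 transcripts, since the annotation behind the authors' counts is not given in the sources used here. It was 1844 bases for Gabarap and 7517 for Map1lc3b, so the order depends on the annotated transcripts as well as on the counts. The plot of levels per exon length shows all 37 genes.

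**Figure D1:**
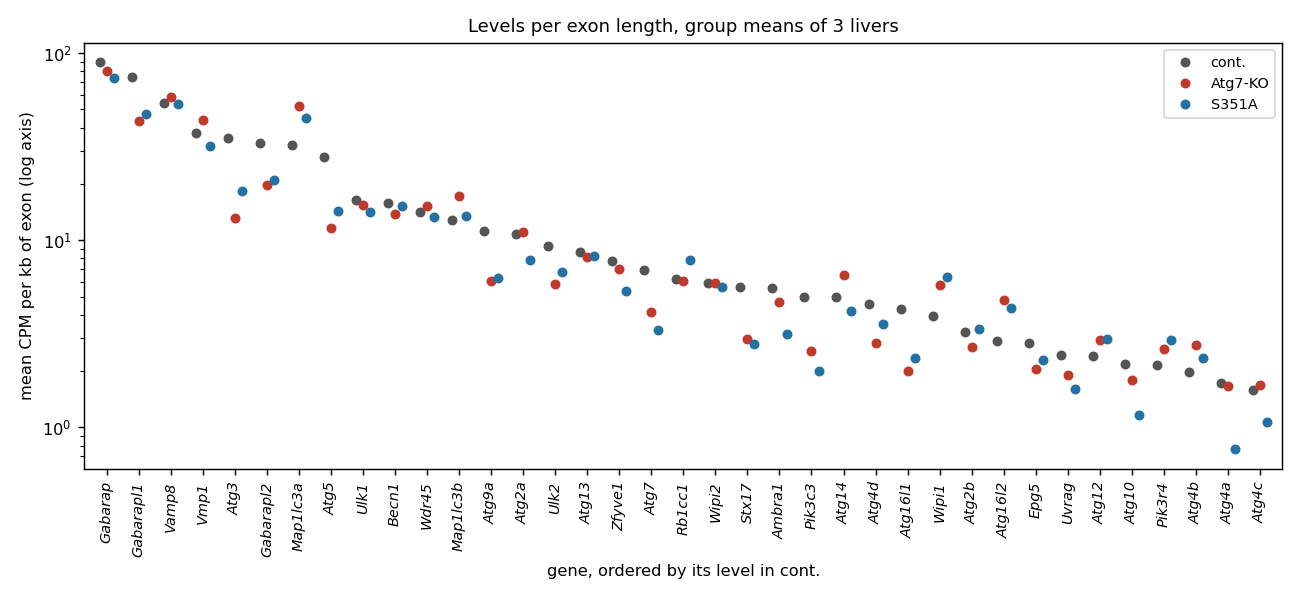
Mean level of each of the 37 genes in CPM per kb of exon (vertical log axis), ordered along the horizontal axis by the level in cont., with 1 point for each group mean of 3 livers. Gabarap leads at 89.5 CPM per kb in cont., Atg3 and Atg5 stand lower in both Cre groups than in cont., and Atg4c and Atg4a are lowest.

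In Atg7-KO livers 10 genes of the machinery were lower than in cont., and 4 of them belong to the conjugation system: the enzyme genes Atg7 and Atg3, and Atg5 and Atg16l1. Calls needed a fold change above 1.5 and an adjusted p under 0.05 in the quasi-likelihood test of edgeR, adjusted by Benjamini-Hochberg over all 11199 genes. On the TMM scale, 10 of the 35 genes were called lower (28.6%) and 2 higher (5.71%). Among all genes tested, 18.1% were called lower and 19.9% higher. The genes called lower were Ulk2, Atg9a, Atg7, Atg3, Atg5, Atg16l1, Atg4d, Gabarapl1, Gabarapl2 and Stx17, and those called higher were Atg16l2 and Map1lc3a. The median log2 fold change was -0.14 over the 35 genes and -0.03 over all genes. In 12 of the 35 genes all 3 Atg7-KO libraries lay below all 3 cont. libraries, and in 5 they lay above, against 24.9% and 26.7% of all genes.

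These counts moved with the scale. The total library size as the scale raised the log2 fold change of the median gene by 0.55 in Atg7-KO and by 0.50 in S351A, both against cont., and in Atg7-KO 11 of the 35 genes were then called higher and 2 lower, against 38.5% and 7.11% of all genes. A library size without the 20 most counted genes raised it by 0.44 and 0.40, with 9 called higher and 2 lower in Atg7-KO, against 33.9% and 8.68%. In Atg7-KO the genes called lower under all 3 scales were Atg3 and Atg5, and Atg16l2 and Map1lc3a were called higher under all 3. Under the 3 scales the median of the 35 genes lay 0.11 to 0.12 below that of all genes in Atg7-KO, and 0.25 to 0.26 below it in S351A. Changes are therefore given relative to the TMM scale. After thinning every library to the smallest total, Atg7-KO had 7 genes called lower and 1 higher, against 14.7% and 15.7% of all genes, without Ulk2, Atg4d, Stx17 and Atg16l2.

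In S351A livers 8 genes were lower than in cont., 4 of them of the conjugation system, 2 of the phosphatidylinositol 3-kinase complex and its partners, 1 of lipid supply and 1 of fusion. On the TMM scale, 8 of the 35 genes were called lower (22.9%) and 1 higher (2.86%), against 13% and 15.6% of all genes. The genes called lower were Pik3c3, Ambra1, Atg9a, Atg7, Atg3, Atg5, Atg16l1 and Stx17, and Wipi1 was called higher. The median log2 fold change was -0.29, and -0.03 over all genes. All 3 S351A libraries lay below all 3 cont. libraries in 9 of the 35 genes and above them in 3, against 18.4% and 19.6% of all genes. With the total library size as the scale, 6 were called higher and 0 lower, against 31.6% and 4.55% of all genes, and without the 20 most counted genes 4 were called higher and 1, Atg7, lower, against 27.4% and 5.63%. A fit of the 6 compared libraries alone called 2 lower, Atg7 and Stx17, and 0 higher, against 8.04% and 11.4% of all genes. After thinning every library to the smallest total, 5 were called lower and 0 higher, against 11.4% and 12.9%, without Pik3c3, Atg5 and Atg16l1. Both comparisons with cont. use the same 3 cont. livers and are not independent of each other.

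**Figure D2:**
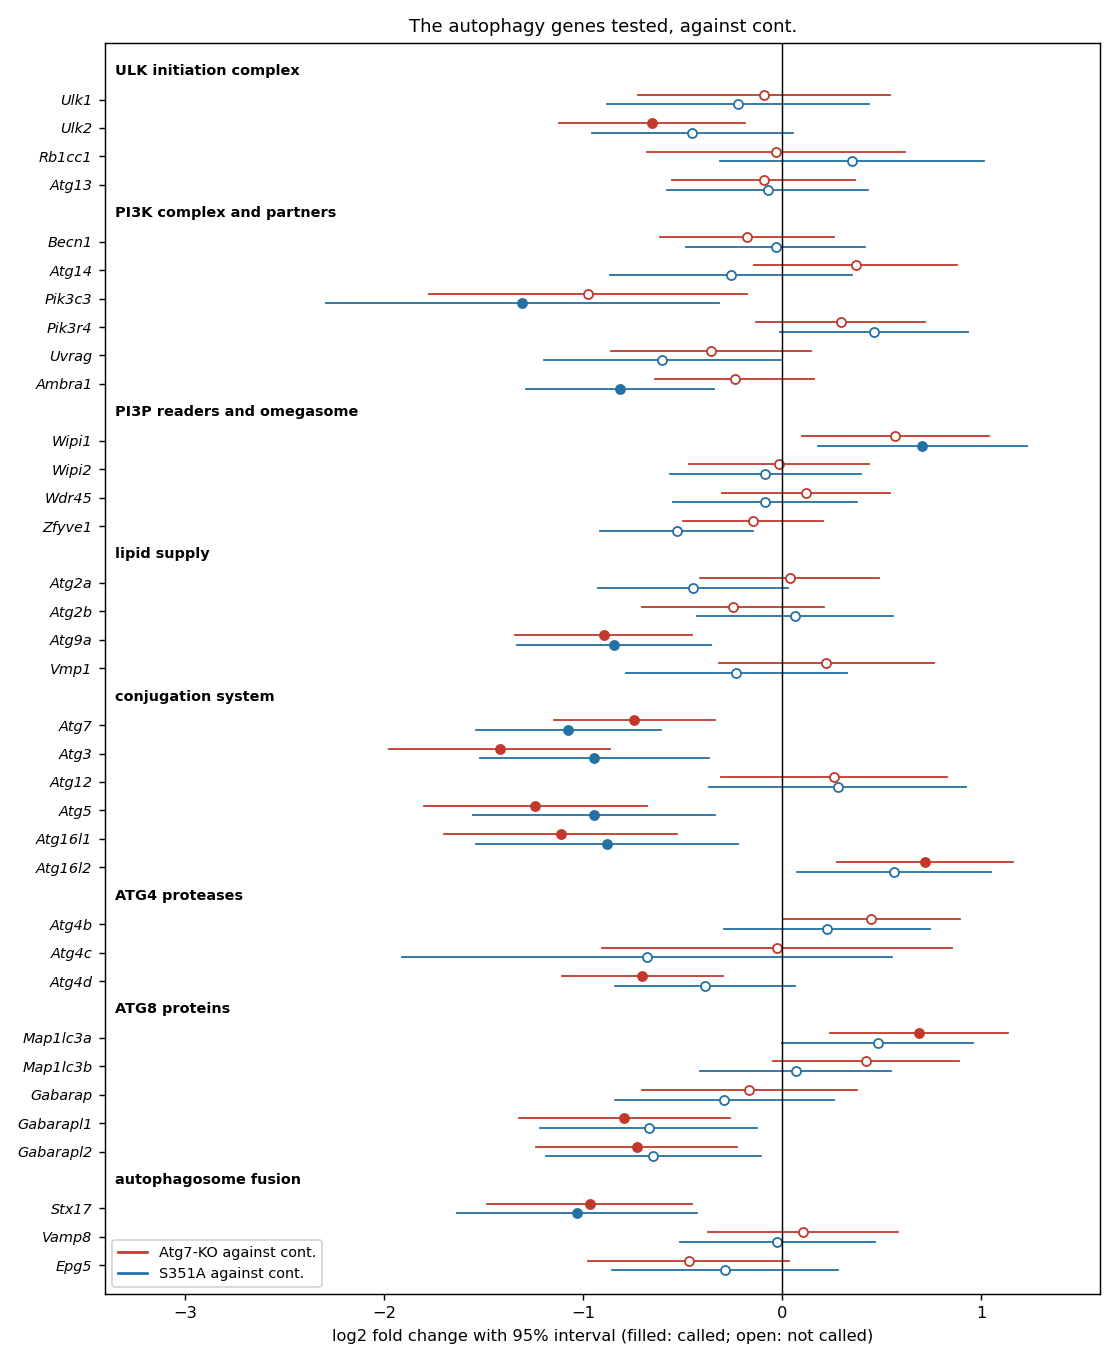
Log2 fold change against cont. (horizontal axis, TMM scale) with its 95% interval for the 35 genes tested, grouped by role, in Atg7-KO (red) and in S351A (blue). Filled points passed the test and the fold threshold. Of the conjugation system, 4 of 6 genes were called lower in each comparison, against 18.1% of all genes in Atg7-KO and 13% in S351A. None of the 4 listed PI3P reader and omegasome genes was called in Atg7-KO, against 19.9% of all genes called higher and 18.1% lower. Under the total library size all values move to the right by about the shift of the median gene, 0.55 and 0.50.

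Of the 6 genes of the conjugation system tested, which are enzymes, their substrates and partners, 4 were called lower in both Cre groups. Of all genes, 18.1% were called lower in Atg7-KO and 13% in S351A. Atg16l2 was called higher in Atg7-KO, as were 19.9% of all genes. Of the 4, Atg7 alone kept its S351A call with the 6 compared libraries alone, and none kept it with the total library size. Atg7 itself, which activates ATG12 and the ATG8 proteins, lies on chromosome 6 of mm10 from 114643097 to 114860614. It was at 45.1, 57.7 and 42.4 CPM in cont. livers, at 30.2, 28.0 and 28.4 CPM in Atg7-KO, and at 21.8, 24.8 and 22.2 CPM in S351A. Every Cre liver was below every cont. liver. Atg7 had a log2 fold change of -0.74 in Atg7-KO (SE 0.19, adjusted p 0.00758 in edgeR's test) and -1.07 in S351A (SE 0.21, adjusted p 0.00319). The table counts the gene as a whole, which gives no view of the floxed part alone.

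Atg3 encodes the E2-like enzyme that passes ATG8 proteins from ATG7 to the lipid phosphatidylethanolamine. Its levels were 114, 97.2 and 120.3 CPM in cont. livers, 36.2, 51.7 and 36.2 CPM in Atg7-KO, and 36.8, 58.4 and 77.7 CPM in S351A. Its groups did not overlap in either comparison with cont., and the spread was wider in S351A. The log2 fold change was -1.42 in Atg7-KO (fold 0.374, SE 0.26, adjusted p 0.001), the lowest among the 35 genes, and -0.94 in S351A (SE 0.26, adjusted p 0.019). The S351A call was lost without S351A replicate 1 (-0.71, adjusted p 0.0801) and without S351A replicate 2 (-0.97, adjusted p 0.0598), in a range of 0.00198 to 0.209 over all alternatives.

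Atg5, the protein to which ATG12 is attached, was at 82.0, 50.7 and 63.0 CPM in cont. livers, at 26.7, 27.6 and 27.9 CPM in Atg7-KO and at 19.5, 44.7 and 37.0 CPM in S351A. The Atg7-KO livers lay close together, and no Cre liver reached the lowest cont. liver. Atg5 had a log2 fold change of -1.24 in Atg7-KO (fold 0.423, SE 0.26, adjusted p 0.00247) and -0.95 in S351A (SE 0.28, adjusted p 0.0241). Atg3 and Atg5 kept their Atg7-KO calls in each of the 20 alternatives tried. The S351A call of Atg5 was lost without cont. replicate 1 (-0.79, adjusted p 0.0536) or S351A replicate 1 (-0.68, adjusted p 0.0947), in a range of 0.00251 to 0.232.

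Atg16l1 and Atg16l2 are paralogs. ATG16L1 joins the ATG12-ATG5 conjugate into the complex that places ATG8 proteins on the growing membrane, and ATG16L2 is its less studied relative. Atg16l1 was at 31.1, 47.9 and 44.3 CPM in cont. livers, 19.5, 19.7 and 18.3 CPM in Atg7-KO, and 14.9, 17.4 and 35.8 CPM in S351A. Its fold change was -1.11 on the log2 scale in Atg7-KO (SE 0.27, adjusted p 0.00611), with no overlap. In S351A it was -0.88 (adjusted p 0.0463), where replicate 3 lay inside the cont. range, and the call was lost with RLE size factors (-0.86), with a filter of at least 10 counts in every library (-0.82) and on leaving out cont. replicate 2 (-0.79) or 3 (-0.84), any Atg7-KO library (-0.88, -0.89 and -0.89 for replicates 1 to 3) or S351A replicate 1 (-0.66) or 2 (-0.74). Atg16l2 went the other way. It was at 22.9, 22.9 and 27.8 CPM in cont. livers, 45.0, 42.0 and 35.2 CPM in Atg7-KO, and 32.2, 45.9 and 32.1 CPM in S351A, and every Cre liver was above every cont. liver. Its log2 fold change was 0.72 in Atg7-KO (SE 0.20, adjusted p 0.0142) and 0.56 in S351A (95% interval 0.08 to 1.05, adjusted p 0.078), which was called with the total library size (1.06) and without the 20 most counted genes (0.96). The Atg7-KO call was lost without Atg7-KO replicate 1 (0.64, adjusted p 0.0689) or 2 (0.70, adjusted p 0.0538), in a range of 0.000303 to 0.0862. The summed macrophage and lymphocyte markers were also higher in the Cre livers, with the split of the macrophage list given above, and their part in the Atg16l2 result was not tested.

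Atg12, the ubiquitin-like protein joined to ATG5, was not called, with log2 fold changes of 0.26 in Atg7-KO (95% interval -0.31 to 0.83) and 0.28 in S351A (-0.37 to 0.93). Atg10, the E2-like enzyme of ATG12, was at 3.17 to 4.21 CPM in cont. livers, 1.83 to 4.18 CPM in Atg7-KO and 1.24 to 2.47 CPM in S351A, where the values rest on as little as 1 count.

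**Figure D3:**
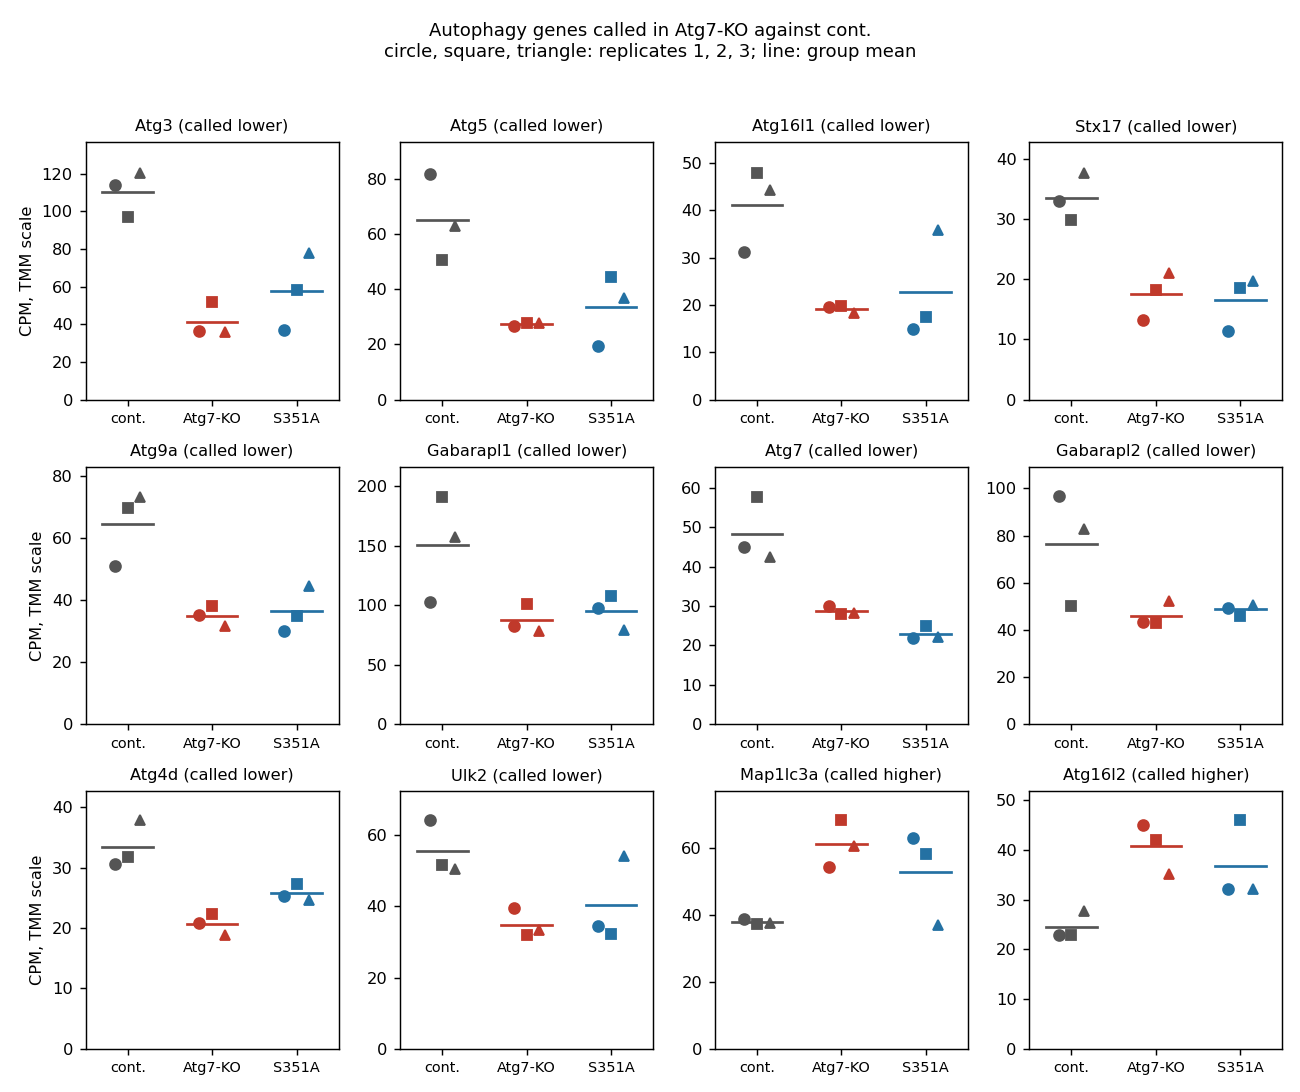
Level in each liver (vertical axis, CPM on the TMM scale, from 0) of the 12 genes called in Atg7-KO against cont., ordered by fold change, with replicates 1, 2 and 3 as circle, square and triangle and the group mean as a line. The Atg3 values of 36.2 to 51.7 CPM in Atg7-KO lie below the 97.2 to 120.3 CPM of cont., while Atg16l2 and Map1lc3a lie above cont. Under the 2 other scales Atg3, Atg5, Atg16l2 and Map1lc3a keep their calls.

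The 250 bases before the start site are shown for Atg3 and Atg5, which were lower in Atg7-KO under all 3 scales, for Ulk2, the gene called lower there that holds TGACNNNGC, and for Atg16l2, which was called higher. They are from RefSeq on GRCm38.p6, 5′ to 3′ on the strand of the gene. The capitals mark CACGTG, the letters of the E-box bound by TFEB and related factors that control lysosome and autophagy genes, and TGACNNNGC, the core of the element bound by NRF2. Both were searched on both strands.
Atg3, chr16:45158579-45158828, + strand: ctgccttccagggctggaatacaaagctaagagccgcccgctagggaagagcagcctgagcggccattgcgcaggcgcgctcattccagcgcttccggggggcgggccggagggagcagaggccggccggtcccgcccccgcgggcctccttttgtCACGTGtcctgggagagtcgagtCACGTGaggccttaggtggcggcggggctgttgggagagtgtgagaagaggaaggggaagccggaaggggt
Atg5, chr10:44268089-44268338, + strand: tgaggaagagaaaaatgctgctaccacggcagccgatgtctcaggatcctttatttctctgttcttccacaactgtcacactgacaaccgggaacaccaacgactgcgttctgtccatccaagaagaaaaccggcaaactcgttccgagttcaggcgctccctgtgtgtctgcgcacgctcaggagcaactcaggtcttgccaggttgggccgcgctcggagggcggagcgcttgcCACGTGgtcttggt
Ulk2, chr11:61855093-61855342, - strand: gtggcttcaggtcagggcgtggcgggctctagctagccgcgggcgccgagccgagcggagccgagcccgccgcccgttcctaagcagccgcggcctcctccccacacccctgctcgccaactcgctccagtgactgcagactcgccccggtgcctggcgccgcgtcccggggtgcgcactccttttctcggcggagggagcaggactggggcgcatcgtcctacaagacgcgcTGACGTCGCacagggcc
Atg16l2, chr7:101302089-101302338, - strand: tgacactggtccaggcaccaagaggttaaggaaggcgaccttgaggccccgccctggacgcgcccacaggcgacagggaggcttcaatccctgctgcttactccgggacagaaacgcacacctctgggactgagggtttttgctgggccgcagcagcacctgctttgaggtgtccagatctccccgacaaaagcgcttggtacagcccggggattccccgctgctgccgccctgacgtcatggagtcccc

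CACGTG begins 94 and 71 bases before the start of Atg3 and 14 bases before that of Atg5, and TGACNNNGC begins 17 bases before the start of Ulk2. In windows from 250 bases before to 50 after the start, 30 of the 37 genes matched RefSeq, with 35 windows. CACGTG was in 4 of the 35 (11.4%), those of Atg14, Atg7, Atg3 and Atg5, and in 7.15% of all 32851 windows. It was in 3 of 9 windows of genes called lower in Atg7-KO. The window matched for Atg7 begins at 114670846 on chromosome 6, inside the GENCODE gene and not at its start. The Atg14 window also lies inside its GENCODE gene: on the - strand of chromosome 14 it starts at 47568684, and the gene at 47570649. TGACNNNGC was in 7 of 35 windows, belonging to Ulk2, Atg13, Zfyve1, Map1lc3b and, with 3 windows, Vmp1, and in 12.4% of all windows. It was in 1 of the 9 windows of genes called lower (11.1%). GTAAACA, the letters bound by FOXO factors, and TGATGNAA, those of the ATF4 element, were in 0 of 35 windows, and in 3.65% and 3.97% of all windows. A match describes letters only, and the absence of one says nothing of a factor.

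The ATG8 proteins are the substrates of this chain. The ATG4 proteases cut each one behind a glycine near its end, and ATG7 then activates that glycine. The last 27 coding bases before the stop codon are shown for this reason, read from the GENCODE M21 transcripts, with the codon of the glycine in capitals.
Map1lc3a: tacgcctcccaagaaaccttcGGCttc
Map1lc3b: gagacattcGGGacagcaatggctgtg
Gabarap: tacagtgatgaaagcgtctatGGTctg
Gabarapl1: tacagtgatgaaagtgtctatGGAaaa
Gabarapl2: tacagcggagagaacacttttGGCttc
In Map1lc3b 15 bases follow the glycine codon, and in the other 4 genes 3 bases follow it.

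Of the 5 ATG8 genes, 1 was called higher (20%) and 2 lower (40%) in Atg7-KO, against 19.9% and 18.1% of all genes, and none in S351A, where in edgeR's test 1 was higher and 2 lower at an unadjusted p under 0.05, against 21.1% and 19.9% of all genes. Map1lc3a, one of the LC3 genes, was at 38.8, 37.3 and 37.8 CPM in cont. livers, 54.5, 68.6 and 60.9 CPM in Atg7-KO, and 63.2, 58.4 and 37.0 CPM in S351A. The Atg7-KO livers were all above cont., whereas S351A replicate 3 lay below it. The log2 fold change was 0.69 in Atg7-KO (SE 0.21, adjusted p 0.0187) and 0.48 in S351A (95% interval 0.00 to 0.96, adjusted p 0.121). The Atg7-KO call was lost without Atg7-KO replicate 2 (0.60, adjusted p 0.0878) or 3 (0.68, adjusted p 0.0589), in a range of 0.000515 to 0.0878. In S351A the change was called with the total library size (0.97), without the 20 most counted genes (0.88) and without S351A replicate 3 (0.66).

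Map1lc3b, whose protein is the LC3 usually blotted as an autophagosome marker, was at 80.1, 122 and 86.7 CPM in cont. livers, 114, 129.6 and 144 CPM in Atg7-KO, and 90.8, 114 and 98.7 CPM in S351A. The groups overlapped. Its log2 fold change was 0.42 in Atg7-KO (95% interval -0.04 to 0.89, adjusted p 0.14) and 0.07 in S351A (-0.41 to 0.55, adjusted p 0.845), and the Atg7-KO change was called with the total library size (0.96), without the 20 most counted genes (0.85) and without cont. replicate 2 (0.62). Gabarap was at 109, 167 and 219 CPM in cont. livers, 129, 148 and 167 CPM in Atg7-KO, and 129, 129 and 149 CPM in S351A. The spread among the cont. livers covered both other groups, with log2 fold changes of -0.16 (95% interval -0.70 to 0.37) and -0.29 (-0.84 to 0.26), which turn positive with the total library size as the scale (0.39 and 0.22) and without the 20 most counted genes (0.28 and 0.12).

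Gabarapl1 and Gabarapl2 were both called lower in Atg7-KO. Gabarapl1 was at 103, 191 and 157 CPM in cont. livers, 82.4, 101 and 78.2 CPM in Atg7-KO, and 97.7, 108 and 79.0 CPM in S351A. Its log2 fold change was -0.79 in Atg7-KO (SE 0.24, adjusted p 0.0218), with cont. replicate 1 just above the highest Atg7-KO liver, and -0.67 in S351A (adjusted p 0.0631). The Atg7-KO call was lost without cont. replicate 2 (-0.60), Atg7-KO replicate 1 (-0.75) or Atg7-KO replicate 3 (-0.73), and S351A was called with the replicate block (-0.65, adjusted p 0.0457, in a range of 0.0119 to 0.593), with no filter on low counts (-0.77), with sex as a covariate (-0.72) and without cont. replicate 1 (-0.90). Gabarapl2 was at 96.6, 50 and 82.7 CPM in cont. livers, 43.2, 42.7 and 52.2 CPM in Atg7-KO, and 49.4, 45.9 and 50.6 CPM in S351A. Its groups overlapped through cont. replicate 2, with log2 fold changes of -0.73 (SE 0.23, adjusted p 0.0257) and -0.65 (adjusted p 0.0694). That Atg7-KO call was lost without cont. replicate 1 (-0.57) or 3 (-0.66) or Atg7-KO replicate 1 (-0.68) or 2 (-0.69) and with sex as a covariate (-0.62) or the 6 compared libraries alone (-0.68), and the S351A change was called with no filter (-0.75) and without cont. replicate 2 (-0.89). Of the 75-base windows of Gabarapl1 transcripts, 20.5% also occur in transcripts of the overlapping 1700101I11Rik, and 9.53% of those of Gabarapl2 occur in transcripts of Gm3724, Gm6051 and Gm5829, so both counts are uncertain to that extent.

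The ATG4 proteases process the ATG8 proteins and release them from membranes. Of the 3 tested, Atg4d alone was called, lower in Atg7-KO, against 18.1% of all genes. It was at 30.5, 31.7 and 37.8 CPM in cont. livers, 20.9, 22.3 and 18.8 CPM in Atg7-KO, and 25.3, 27.3 and 24.7 CPM in S351A. The 3 groups were separate, with S351A in the middle. The log2 fold change was -0.70 in Atg7-KO (SE 0.19, adjusted p 0.0102), lost without Atg7-KO replicate 3 (-0.65), and -0.39 in S351A (95% interval -0.84 to 0.06, adjusted p 0.182), which turns to 0.11 with the total library size and 0.02 without the 20 most counted genes. Of its windows, 12.2% are shared with Kri1 on the other strand. Atg4b, the most active of these proteases toward LC3, was at 15.3 to 17.3 CPM in cont. livers, 20.2 to 26.1 CPM in Atg7-KO and 17.3 to 22.4 CPM in S351A, and was not called (0.45 with adjusted p 0.102, and 0.23). Atg4c and Atg4a lay between 1.15 and 8.15 CPM in all libraries and rest on 1 to 5 counts in each S351A library, and 41.3% of Atg4a windows are shared with other genes, Atg4a-ps among them.

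Of the 4 listed genes of the ULK initiation complex, Ulk2 was called lower in Atg7-KO, against 18.1% of all genes, and the 3 others were not called. Atg101, a further gene of this complex, is counted below with the other autophagy genes and was called lower in Atg7-KO (-2.02). Ulk2, one of the 2 kinases, was at 64.2, 51.8 and 50.5 CPM in cont. livers, 39.4, 31.9 and 33.4 CPM in Atg7-KO, and 34.5, 32.3 and 54.3 CPM in S351A. All Atg7-KO livers were below cont., and S351A replicate 3 lay inside the cont. range. The log2 fold change was -0.65 (SE 0.22, adjusted p 0.0301) in Atg7-KO and -0.45 (95% interval -0.96 to 0.06, adjusted p 0.167) in S351A. The Atg7-KO call was lost with at least 10 counts in every library (-0.56), without cont. replicate 1 (-0.56) or any 1 of the Atg7-KO replicates 1 to 3 (-0.75, -0.60 and -0.64), and the S351A change was called without S351A replicate 3 (-0.74) and turns to 0.04 with the total library size. Ulk1, the kinase that mTORC1 and AMPK control, had a log2 fold change of -0.09 in Atg7-KO (95% interval -0.72 to 0.54) and -0.22 in S351A (-0.88 to 0.43). Rb1cc1 (FIP200), the scaffold of the complex, was at 70.8 to 132 CPM in cont. livers, 82.4 to 99.3 CPM in Atg7-KO and 82.7 to 166 CPM in S351A, and Atg13, the adaptor, stayed between 28.8 and 44.5 CPM in all 9 livers.

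The phosphatidylinositol 3-kinase complex with its partners had no gene called in Atg7-KO, against 19.9% of all genes called higher and 18.1% lower. In S351A 2 of its 6 genes were called lower, against 13% of all genes. In Atg7-KO, 1 of its 6 genes, Pik3c3, was lower at an unadjusted p under 0.05 in edgeR's test, as were 23.6% of all genes, and it was called lower with no filter (-1.02), with sex as a covariate (-1.13) and in limma-voom (-0.94, adjusted p 0.0478, in a range of 0.00884 to 0.358 over its alternatives). Pik3c3, the lipid kinase VPS34 itself, was at 16.5, 34.9 and 15.1 CPM in cont. livers, 9.51, 8.61 and 16.0 CPM in Atg7-KO, and 5.74, 11.2 and 9.87 CPM in S351A, where it rests on as few as 5 counts. The S351A livers were all below cont., and the Atg7-KO livers overlapped with it. Its log2 fold change was -0.98 in Atg7-KO (SE 0.37, adjusted p 0.0524) and -1.30 in S351A (SE 0.45, adjusted p 0.0486). The S351A call lies at the threshold and was lost in limma-voom (-1.18), with RLE size factors (-1.29), and without cont. replicate 2 (-0.83), Atg7-KO replicate 1 (-1.31) or 2 (-1.32), or any S351A replicate 1 to 3 (-1.07, -1.52 and -1.40), and the Atg7-KO change was called without cont. replicate 1 (-1.13) or 3 (-1.26) or Atg7-KO replicate 3 (-1.28).

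Ambra1, which links the Beclin 1 complex to ULK1, was at 33.1, 38.4 and 30.7 CPM in cont. livers, 28.5, 27.6 and 30.2 CPM in Atg7-KO, and 21.8, 18.6 and 17.3 CPM in S351A. The 3 groups did not overlap, and S351A was lowest. In Atg7-KO the log2 fold change was -0.24 (95% interval -0.64 to 0.16, adjusted p 0.331), which turns to 0.30 with the total library size and 0.20 without the 20 most counted genes. In S351A it was -0.81 (SE 0.22, adjusted p 0.0146). The other genes of this complex were not called. Becn1, encoding Beclin 1, was at 89.4 to 133 CPM over all 9 livers, with 33.6% of its windows shared with Cntd1 on the other strand. Atg14, which directs the complex to autophagosomes, was at 15.3 to 28.5 CPM in cont. livers, 25.1 to 30.2 CPM in Atg7-KO and 14.9 to 19.9 CPM in S351A. Uvrag, of the endosomal form of the complex, was at 18.3 to 25.4 CPM, 15.8 to 18.3 CPM and 9.93 to 18.5 CPM, and Pik3r4 (VPS15), its pseudokinase subunit, at 19.9 to 22.2 CPM, 24.4 to 26.5 CPM and 22.2 to 32.2 CPM in the same order.

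Of the 4 PI3P reader and omegasome genes of the core list, Wipi1 was called higher in S351A, against 15.6% of all genes. None of them was called in Atg7-KO, against 19.9% of all genes called higher and 18.1% lower. There, in edgeR's test, 1 gene, Wipi1, was higher at an unadjusted p under 0.05, as were 23.9% of all genes. Wdr45b (WIPI3), counted below with the other autophagy genes, was called lower in Atg7-KO (-1.30). WIPI1 is a PI3P-binding protein of the early autophagosomal membrane. It was at 19.1, 17.6 and 15.7 CPM in cont. livers, 27.8, 25.1 and 23.3 CPM in Atg7-KO, and 35.6, 21.1 and 27.1 CPM in S351A, so that every Cre liver was above cont. The log2 fold change was 0.57 in Atg7-KO (SE 0.22, adjusted p 0.0545) and 0.71 in S351A (SE 0.24, adjusted p 0.0456). The S351A call was lost in DESeq2 (0.73, adjusted p 0.0596) and limma-voom (0.71, adjusted p 0.0513), with the replicate block (0.67, adjusted p 0.0541), with no filter (0.60), without cont. replicate 2 (0.71) or 3 (0.61), any Atg7-KO replicate 1 to 3 (0.69, 0.69 and 0.68), or S351A replicate 1 (0.48) or 3 (0.71), and the Atg7-KO change was called in limma-voom (0.59, adjusted p 0.0363), with at least 10 counts in every library (0.66), sex as a covariate (0.63) or the 6 compared libraries alone (0.62), and under the total library size (1.12) and without the 20 most counted genes (1.01). The adjusted p ran from 0.00431 to 0.237 over the alternatives in S351A and from 0.0023 to 0.438 in Atg7-KO. Zfyve1 (DFCP1), a marker of the omegasome, was at 62.9 to 66.9 CPM in cont. livers, 57.3 to 59.2 CPM in Atg7-KO and 41.4 to 48.4 CPM in S351A, with a log2 fold change of -0.53 in S351A (adjusted p 0.0411) that is under the fold threshold. Wipi2, which recruits ATG16L1, and Wdr45 (WIPI4), which binds ATG2, were not called, with all intervals between -0.56 and 0.55 against cont.

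Of the 4 genes that supply lipid, Atg9a was called lower in both Cre groups, against 18.1% of all genes in Atg7-KO and 13% in S351A. ATG9A is the scramblase carried on the vesicles that seed the autophagosome. It was at 50.9, 69.7 and 73.3 CPM in cont. livers, 35.3, 38.0 and 31.6 CPM in Atg7-KO, and 29.9, 34.8 and 44.4 CPM in S351A, and every Cre liver was below every cont. liver. Atg9a had a log2 fold change of -0.90 in Atg7-KO (SE 0.20, adjusted p 0.00441) and -0.84 in S351A (SE 0.22, adjusted p 0.0143), the second lost without S351A replicate 1 (-0.73) or 2 (-0.84). Of its windows, 28.8% are shared with other transcripts, mainly the overlapping Gm29253, and Ankzf1 overlaps it on the other strand. Atg2a and Atg2b, the lipid transfer proteins, were at 68.8 to 89.6 CPM and 36.7 to 54.0 CPM in cont. livers, 74.0 to 90.1 CPM and 31.6 to 40.6 CPM in Atg7-KO, and 47.2 to 72.8 CPM and 35.8 to 49.7 CPM in S351A. Vmp1 was at 116 to 196 CPM, 163 to 174 CPM and 102 to 158 CPM.

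Of the 3 fusion genes, Stx17 was called lower in both Cre groups, against 18.1% of all genes in Atg7-KO and 13% in S351A. Syntaxin 17 is the SNARE of the closed autophagosome, and VAMP8 is its partner on the lysosome. Stx17 was at 33.1, 29.9 and 37.7 CPM in cont. livers, 13.2, 18.3 and 21 CPM in Atg7-KO, and 11.5, 18.6 and 19.7 CPM in S351A. No Cre liver exceeded 21 CPM and no cont. liver was under 29.9 CPM. Stx17 had a log2 fold change of -0.97 in Atg7-KO (SE 0.24, adjusted p 0.00675) and -1.03 in S351A (SE 0.28, adjusted p 0.0156), the second lost without S351A replicate 1 (-0.83). Vamp8 had log2 fold changes of 0.10 (95% interval -0.37 to 0.58) and -0.02 (-0.51 to 0.47). Epg5, a tether for fusion with lysosomes, was at 22.2 to 33.7 CPM in cont. livers, 15.5 to 24.7 CPM in Atg7-KO and 20.7 to 24.8 CPM in S351A, and was not called.

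**Figure D4:**
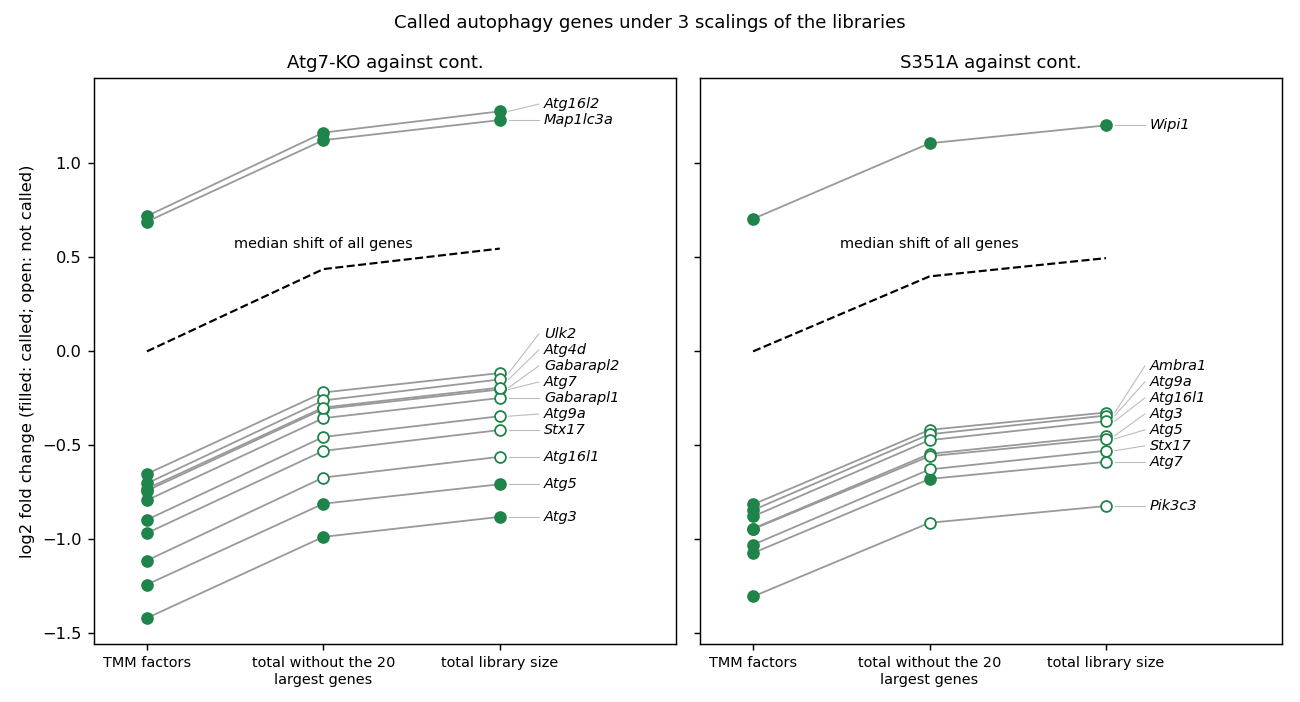
Log2 fold change against cont. (vertical axis) of the genes called on the TMM scale, under 3 scales of the libraries (horizontal axis), in Atg7-KO on the left and in S351A on the right. Filled points were called, and the dashed line is the shift of the median of all genes, which ends at 0.55 on the left and 0.50 on the right. Atg3, Atg5, Atg16l2 and Map1lc3a stay called in Atg7-KO and Wipi1 in S351A, while no point changes sign.

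The comparison of S351A with Atg7-KO asked whether the p62 mutation changed the machinery in livers that lack Atg7 in hepatocytes. None of the 35 genes was called by edgeR's quasi-likelihood test, against 0% of all genes called higher and 0.00893% called lower. An unadjusted p under 0.05 was found for 3 of the 35 genes, all lower, against 3.21% of all genes lower and 3.38% higher. DESeq2 and limma-voom also called 0 of the 35. The smallest adjusted p was 0.696, and the median log2 fold change was -0.07, against 0.01 over all genes. The 3 genes were Ambra1 (-0.58, 95% interval -1.05 to -0.10), Atg14 (-0.63, -1.23 to -0.03) and Atg2a (-0.49, -0.96 to -0.01), which are named after their values were seen. In 7 of the 35 genes all S351A libraries lay below all Atg7-KO libraries, and in 1 they lay above, against 9.23% and 7.67% of all genes.

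For Atg3 the log2 difference was 0.48, with an interval of -0.11 to 1.06. For Atg5 it was 0.29 (-0.33 to 0.92), for Atg16l1 0.23 (-0.45 to 0.92) and for Atg7 -0.33 (-0.81 to 0.14) in the same comparison. Over the 35 genes the bounds reached from -1.90, for Atg4c, to 1.06, for Atg3.

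**Figure D5:**
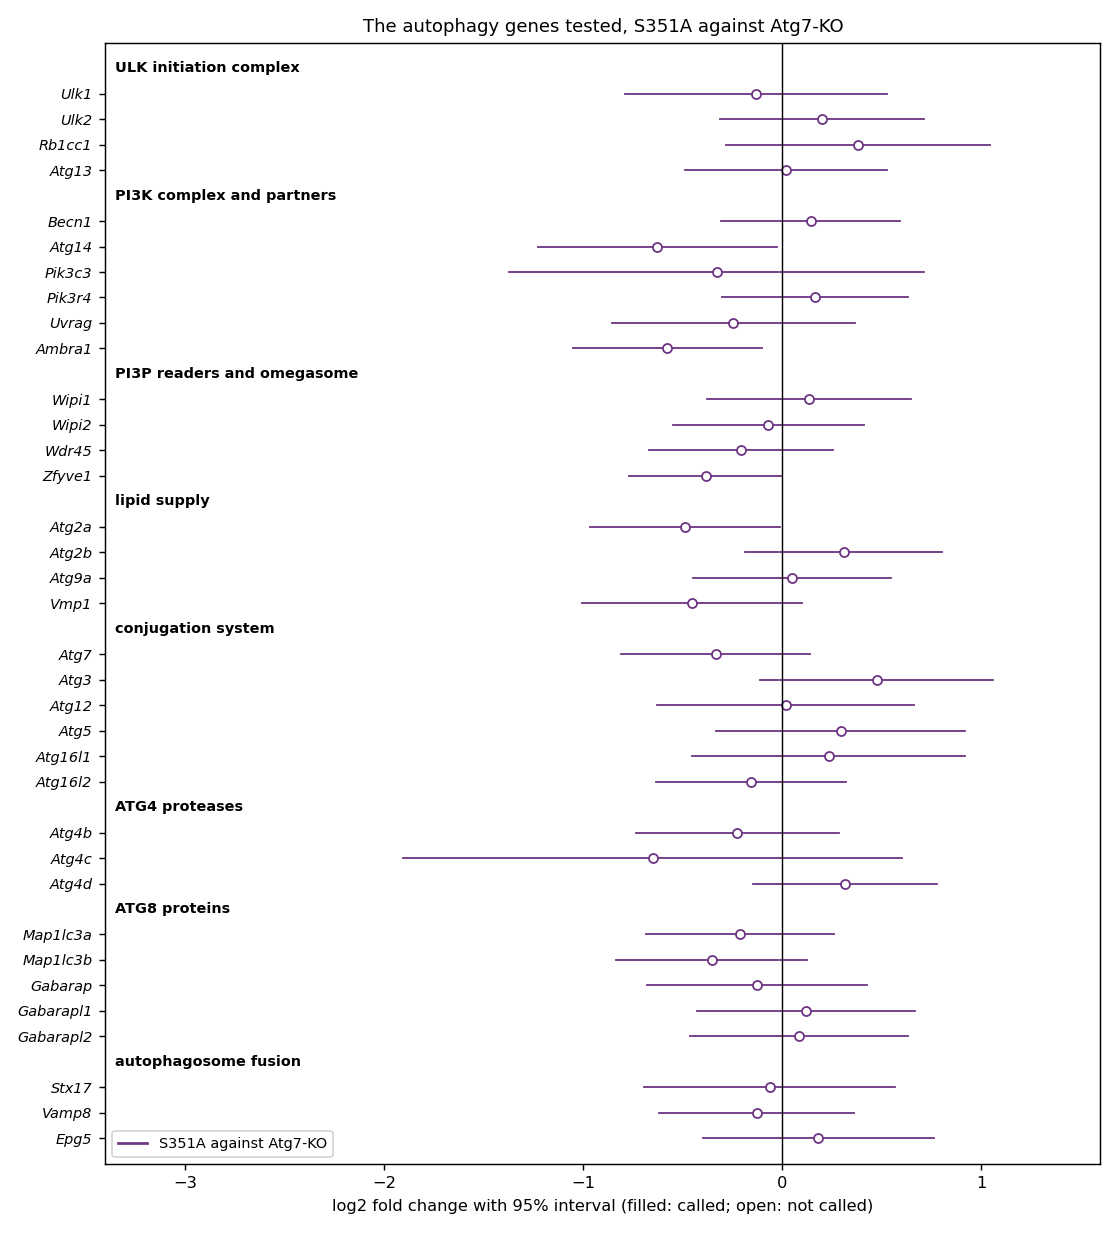
Log2 fold change of S351A against Atg7-KO (horizontal axis) with its 95% interval for each of the 35 genes, grouped by role. No gene was called, so all points are open, and 3 intervals, those of Atg14, Ambra1 and Atg2a, end below 0.

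Genes around the core were counted in the same way. Of 38 other autophagy genes (adaptors, tethers, receptors and partners of the complexes), 35 were tested. In Atg7-KO 6 were called higher (17.1%) and 4 lower (11.4%), against 19.9% and 18.1% of all genes, and in S351A 3 and 3 (8.57% each), against 15.6% and 13%. The lower genes with the smallest p in Atg7-KO were Atg101, Wdr45b and Optn. Atg101, the partner of ATG13 in the ULK complex, was at 38.1, 50 and 50.9 CPM in cont. livers, 11.6, 8.26 and 15.1 CPM in Atg7-KO, and 16.1, 11.2 and 4.94 CPM in S351A. No library of the Cre groups came near the lowest cont. library. Atg101 had log2 fold changes of -2.02 (SE 0.29, adjusted p 0.000232 in edgeR's test) and -2.11 (adjusted p 0.00103), larger in size than that of any of the 35 core genes. Wdr45b (WIPI3) was at 24.2, 34.5 and 29.5 CPM in cont. livers and 10.7, 14.0 and 11.4 CPM in Atg7-KO (-1.30, adjusted p 0.00123), and in S351A its change was -0.65 (adjusted p 0.0895). Optn, a receptor for damaged mitochondria and bacteria, had log2 fold changes of -0.96 (adjusted p 0.00249) and -0.76 (adjusted p 0.0155), and its Atg7-KO call was lost with the total library size (-0.43) and without the 20 most counted genes (-0.53).

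The higher genes with the smallest p were Bcl2, Tecpr2 and Bcl2l1. Bcl2, which binds Beclin 1 and blocks apoptosis, was at 3.81, 12.0 and 3.05 CPM in cont. livers, 41.5, 35.9 and 40.3 CPM in Atg7-KO, and 48.3, 44.7 and 27.1 CPM in S351A. Its log2 fold change was 2.74 (adjusted p 0.00035) and 2.77 (adjusted p 0.000908), and the part of the non-hepatocytes in it was not tested. Bcl2l1 (BCL-XL) had a log2 fold change of 0.86 in Atg7-KO (adjusted p 0.0122), lost without Atg7-KO replicate 2 (0.77) or 3 (0.77), and 0.54 in S351A (adjusted p 0.12). Tecpr2, a protein tied to autophagosomes and to export from the endoplasmic reticulum, had log2 fold changes of 0.83 (adjusted p 0.0101), lost after thinning (0.22) and without Atg7-KO replicate 2 (0.73), and 0.84 (adjusted p 0.0215).

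Of 31 upstream regulators of the mTORC1, AMPK, TFEB and FOXO pathways, 27 were tested. In Atg7-KO 3 were called higher (11.1%) and 1 lower (3.70%), against 19.9% and 18.1% of all genes, and in S351A 1 and 0, against 15.6% and 13%. In S351A, 2 of the 27 were higher and 3 lower at an unadjusted p under 0.05 in edgeR's test, against 21.1% and 19.9% of all genes. Rragd, a Rag GTPase that recruits mTORC1 to the lysosome and a known target of TFEB and related factors, was at 0, 2.11 and 1.16 CPM in cont. livers, 59.6, 59.2 and 60.9 CPM in Atg7-KO, and 40.2, 43.5 and 25.9 CPM in S351A. No cont. library was above 2.11 CPM, and the log2 fold changes were 5.57 (adjusted p 1.69e-06) and 4.85 (adjusted p 1.1e-05). Prkaa1, a catalytic subunit of AMPK, was at 11.4, 11.6 and 11.3 CPM in cont. livers and 19.3, 22.3 and 27.0 CPM in Atg7-KO (0.98, adjusted p 0.0143), which was lost after thinning (1.39) and without Atg7-KO replicate 3 (0.84), and had a log2 fold change of 0.90 in S351A (adjusted p 0.0502). Prkab2, a regulatory subunit, was at or under 7.66 CPM in all 9 libraries, and its call (1.47, adjusted p 0.0423) was lost without any 1 of the cont. or Atg7-KO libraries, with values of 1.27 to 1.58, and without S351A replicate 1 (1.45). Tsc1, which restrains mTORC1, was at 32.4, 47.2 and 48.1 CPM in cont. livers and 26.9, 26.6 and 27.9 CPM in Atg7-KO (-0.67, adjusted p 0.0299), which was lost with the total library size (-0.12), without the 20 most counted genes (-0.23) and after thinning (-0.23). It was also lost without cont. replicate 2 (-0.62) or 3 (-0.58) or any Atg7-KO replicate 1 to 3 (-0.66, -0.66 and -0.70).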

How the data were processed

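Per the labels and the study's methods, poly(A) RNA of mouse liver was sequenced with single-end reads of 75 bases, trimmed with Trim Galore, mapped to mm10 with STAR and quantified with RSEM, tool versions, annotation and strand setting not being given in the sources used here. The deposited table holds expected counts, estimated read counts per gene that the authors did not scale between libraries. Values that were not whole made up 4.40% to 7.75% of a library, and all values were rounded. R 4.3.3 and edgeR 4.0.16 were used for the analysis: filterByExpr (minimum count 10, minimum total 15), TMM factors, and 1 quasi-likelihood model over the 9 libraries with a term per group. A call needed an adjusted p under 0.05 (Benjamini-Hochberg over 11199 genes) and a fold change above 1.5. SEs and 95% intervals follow from the test's p-value. Log values used a prior count of 2. The level of 3 counts covers counting error only, as PCR copies of 1 molecule could not be recognised, and intervals cover the spread between these livers.

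Alternatives were other scales, filters and thresholds, DESeq2 1.42.0, limma-voom (limma 3.58.1), thinning to 713835 counts, sex as a covariate (from Xist and Y-linked genes), the replicate block, the 6 compared libraries alone, and each library left out in turn. Replicate numbers paired S351A with cont., as deviations from the group means of the 3 same-numbered pairs correlated with r of 0.24, 0.18 and 0.16, each over 0.1. This pairing is read from the data, since the labels do not say what a number marks, and it cannot be told apart from sex in replicates 1 and 2, where the number and the sex read from Xist go together in all groups. The main fit has no block. Windows of 75 bases of GENCODE M21 transcripts gave the shares of sequence common to other genes. All 37 genes are described by role, and test values are given for Atg7, the 5 ATG8 genes and each gene called in at least 1 comparison. From the 2 further lists, up to 3 called genes with the smallest p per direction in Atg7-KO were named. The members and lists were chosen with earlier results of these data known. Promoters are RefSeq windows on GRCm38.p6.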

Additional observations from a re-analysis of the deposited data

How the results depend on the processing

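Which genes were called depended on the scale of the libraries. In Atg7-KO against cont., the total library size gave 11 genes called higher and 2 lower (median log2 fold change 0.40), and the library size without the 20 most counted genes gave 9 and 2 (0.29). In S351A against cont. the same scales gave 6 and 0 (0.22) and 4 and 1 (0.12). No filter gave medians of -0.22 in Atg7-KO, -0.40 in S351A and -0.18 in S351A against Atg7-KO, and 0 higher in S351A. At least 10 counts in every library gave medians of -0.033 and -0.18. Thinning gave 1 higher in Atg7-KO (median -0.044), and 0 higher and 5 lower in S351A. The 6 compared libraries alone gave 0 higher and 2 lower in S351A (median -0.19). DESeq2, limma-voom and the replicate block each gave 0 higher in S351A. A fold threshold of 2 gave 0 higher and 3 lower in either comparison with cont. The share of all genes called was not taken for no filter, DESeq2, limma-voom, the replicate block or this threshold. The counts under them cannot be set against all genes.

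Leaving out 1 library at a time gave 0 to 3 higher and 7 to 10 lower in Atg7-KO (median -0.19 to -0.098), 0 to 1 higher and 2 to 8 lower in S351A (median -0.42 to -0.25), and a median of -0.17 to -0.029 in S351A against Atg7-KO. The share of all genes called was not taken for these fits either. No alternative called any of the 35 genes in S351A against Atg7-KO. The direction of uncalled changes turned as follows. With the total library size, Ambra1 (0.30) and Gabarap (0.39) turned in Atg7-KO, and Ulk2 (0.038), Atg4d (0.11) and Gabarap (0.22) in S351A. Without the 20 most counted genes, Ambra1 (0.20) and Gabarap (0.28) turned in Atg7-KO, and Atg4d (0.015) and Gabarap (0.12) in S351A. Map1lc3b in S351A turned to -0.031 without a filter and to -0.031 with sex as a covariate, and Atg9a in S351A against Atg7-KO to -0.0023 without a filter. Over single libraries left out, Gabarap in Atg7-KO ran from -0.40 to 0.089, Map1lc3b in S351A from -0.061 to 0.26, and in S351A against Atg7-KO Ulk2 from -0.075 to 0.34, Wipi1 from -0.083 to 0.30, Atg9a from -0.12 to 0.18, Atg16l1 from -0.26 to 0.47 and Stx17 from -0.25 to 0.15. The cause of these moves was not tested.

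Same-numbered libraries of Atg7-KO and cont. had correlations of -0.041 to 0.25, and those of S351A and Atg7-KO 0.074 to 0.31, not all over 0.1. Some libraries of different numbers were also over 0.1, as cont. replicate 2 and Atg7-KO replicate 3 (0.21). These values cannot say whether a number marks a shared source in these comparisons. Same-numbered libraries of S351A and Atg7-KO also had the same sex read from Xist. With the replicate block, Atg7-KO had 2 genes called higher and 10 lower, S351A 0 and 9, and the comparison between them 0 and 0. The share of all genes called with the block was not taken, so these counts cannot be set against it. In S351A against cont. the block ended the Wipi1 call, added one for Gabarapl1, and changed no other call among the core genes named with test values. In Atg7-KO against cont. it ended that of Prkab2 (1.29). In S351A, 6 genes rest on 1 to 10 counts in at least 1 library: Atg10, Atg4a, Atg4c, Pik3c3, Uvrag and Stx17.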
